A study of Mus musculus with 21 samples.

Results

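This account follows 10 mouse genes of purine metabolism, out of 33861 genes in the count table: the salvage enzyme genes Hprt and Aprt, the 6 genes of the de novo pathway to inosine monophosphate (Ppat, Gart, Pfas, Paics, Adsl and Atic), and the IMP dehydrogenase genes Impdh1 and Impdh2. They were taken by symbol from the table. The set was chosen by the near absence of Hprt counts in the E14 cultures, so that level is given as a description with no test. The question was whether the purine synthesis genes differed between the E14 cultures and the cells and embryos in which Hprt was read. RNA was sequenced from 12 cultured samples and 9 single mouse epiblasts.

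The cultured samples came in 3 groups, each sample made from 1000 cells. FS samples were formative stem cells, grown in the medium labelled A3XR. They came from line 1 (passages 10, 11 and 18) and line 2 (passages 12, 13 and 16). AF and AFX samples were epiblast stem cells (EpiSCs) whose sample names carry E14, grown in the media labelled AF and AFX, each at passages 14, 15 and 16. E14 is a long-used mouse embryonic stem cell line, and some of its derivatives are known to lack HPRT. The labels do not say which derivative was used or give a genotype for any group. The p in the sample names was read as passage. Epiblasts were collected one by one at embryonic day 5.0 (E5.0; embryos 1, 2 and 4), E5.5 (embryos 1 to 3) and E6.0 (embryos 1 to 3); another label field puts the last stage at 6.5. No strain or sex was given. Line, medium and cell state all change between FS and E14 samples and cannot be told apart. Passages of 1 line are not separate derivations, so the p-values measure only the spread between these samples.

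Cells make purine nucleotides by 2 routes. Salvage recycles free bases: HPRT joins hypoxanthine or guanine, and APRT joins adenine, to the activated sugar PRPP. De novo synthesis builds the ring on PRPP in a chain of steps. PPAT opens the chain with the committed step, GART, PFAS, PAICS and ADSL continue it, and ATIC closes the ring to give IMP, while IMPDH1 and IMPDH2 turn IMP toward guanine nucleotides. Dividing cells of the early embryo need many nucleotides, and both routes draw on the same PRPP. HPRT loss is a classical selectable state in mouse embryonic stem cells.

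The sequence just before the start of Hprt is shown because its level is what separates the E14 samples, and that of Atic because it had the largest fall against the epiblasts among the synthesis genes. Both are the 250 bases before the RefSeq start in GRCm38.p6, plus strand, at chrX:52987828-52988077 for Hprt and chr1:71556906-71557155 for Atic. Capitals mark the GC box (GGGCGG or its complement CCGCCC), the E-box CACGTG to which MYC family factors can bind, and the CCAAT box.
Hprt: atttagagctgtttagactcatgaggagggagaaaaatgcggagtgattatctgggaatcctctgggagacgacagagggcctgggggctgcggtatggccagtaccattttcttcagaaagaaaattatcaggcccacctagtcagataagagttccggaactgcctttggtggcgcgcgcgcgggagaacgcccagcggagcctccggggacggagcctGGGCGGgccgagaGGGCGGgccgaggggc
Atic: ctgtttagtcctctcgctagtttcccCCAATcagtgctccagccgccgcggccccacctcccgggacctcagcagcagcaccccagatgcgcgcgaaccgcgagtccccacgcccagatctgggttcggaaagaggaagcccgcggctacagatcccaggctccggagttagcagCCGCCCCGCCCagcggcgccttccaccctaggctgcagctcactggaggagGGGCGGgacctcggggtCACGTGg
Atic held CACGTG 7 bases before its start, and Hprt held none. RefSeq windows were matched for 9 of the 10 genes, all but Pfas. Of these, Paics, Atic and Impdh2 held CACGTG in the 250 bases before a start, a motif present in 6.02% of 32851 such windows searched on both strands. The GC box was present in 9 of 9 genes and in 32.7% of all windows. CCAAT or its complement ATTGG was found in Gart, Paics and Atic and in 33.8% of windows, and TATAAA or TTTATA in 0 of the 9 genes and in 12.4% of windows. These are matches of letters and were not tested as binding sites.

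All 10 genes are protein coding and were matched to the GENCODE M21 annotation of GRCm38. Hprt lies on chromosome X (52988137 to 53021659, plus strand) and the others on 8 autosomes. Ppat and Paics are neighbours on chromosome 5, on opposite strands, with start sites 271 bases apart and 272 exon bases in common. Gart shares 1014 exon bases with the antisense gene Gm15964 and Impdh2 shares 48 with Ndufaf3. Whether strand was used in the counting is not given in the sources used here, so reads from those shared bases are uncertain between partners.

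Total counts ranged from 5827093 to 15916800 per sample. Levels are in CPM, the counts of a gene scaled to a common library total, with TMM scaling over the 21 samples. Pou5f1, the gene of the pluripotency factor OCT4, was read in all 12 cultured samples (304 to 487 CPM) and all 9 epiblasts (554 to 719 CPM); the rest of its list is given with the epiblast comparison. Fibroblast markers, 7 collagen and stromal genes, summed to 216 to 258 CPM in AF samples against 29.2 to 52.1 in AFX, 15.2 to 44.7 in FS and 9.33 to 22.8 in epiblasts. Visceral endoderm markers, 6 genes, summed to 218 to 772 CPM in E5.0 epiblasts, 19.5 to 56.3 at E5.5, 2.95 to 7.25 at E6.0 and at most 2.88 in culture. In bulk samples, fewer cells of a type and less RNA per cell cannot be told apart.

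Hprt, the hypoxanthine and guanine salvage gene, was close to zero in all 6 E14 samples and well read in the other 15. Its counts in AF passages 14, 15 and 16 were 2, 2 and 7, or 0.247, 0.176 and 0.650 CPM. In AFX passages 14, 15 and 16 they were 9, 1 and 11, or 0.605, 0.125 and 0.916 CPM. In FS line 1 the level was 83.7, 71.2 and 57.8 CPM at passages 10, 11 and 18. The FS line 2 values, 62.2, 63.8 and 67.5 CPM at passages 12, 13 and 16, fell inside the range of line 1. No E14 sample reached 1 CPM.

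**Figure D1:**
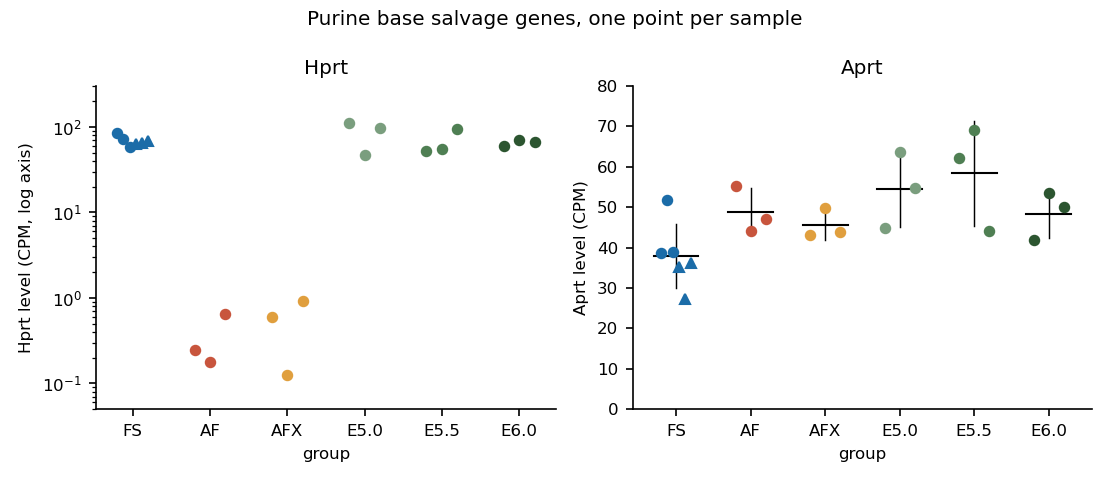
Levels of the salvage genes Hprt (log axis) and Aprt (linear axis) in CPM, 1 point per sample, in FS (circles line 1, triangles line 2), AF, AFX and the 3 epiblast stages; the lines on Aprt are group means with SD. The 6 E14 points for Hprt lie between 0.125 and 0.916 CPM and all other points at 47.4 CPM or more, whereas Aprt lies between 27.2 and 69.1 CPM throughout.

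Pooled over samples, FS had 4715 Hprt counts and E14 had 32, a ratio of CPM of 137 (95% interval 96.6 to 199.9). Epiblasts had 5777 counts, a ratio to E14 of 150.2 (106 to 220). These intervals cover counting error only. As the low level chose the gene, no test was made of it. Counts were above 0 in both media, at most 11 in any E14 sample.

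Hprt ranged more widely in CPM over the embryos (SD 23.0, n = 9) than over the FS samples (SD 9.07, n = 6). The values were 112, 47.4 and 96.4 CPM in E5.0 embryos 1, 2 and 4, and 51.7, 55.7 and 95.2 in E5.5 embryos 1, 2 and 3. At E6.0 they were 58.9, 69.2 and 66.4 CPM. The stages overlapped, and FS samples lay within the embryos' range. The log2 difference of Hprt was -0.42 ± 0.31 from E5.0 to E6.0 (edgeR adjusted p = 0.389) and -0.09 ± 0.18 between FS and epiblasts (adjusted p = 0.673, 95% interval -0.46 to 0.27). Without E5.0 embryo 2, the lowest of its stage, the first became -0.69 and passed (adjusted p = 0.0415).

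Genes around Hprt on the X chromosome were looked at for the same pattern. Of 9 neighbours, 7 were read well enough to test, and in E14 minus FS 1 was lower, 2 higher and 4 did not pass (17.2% of all 16052 genes tested were called, at an edgeR adjusted p under 0.05). At an unadjusted edgeR p under 0.05, 3 were lower and 2 higher. Their median was -0.36, beside -0.01 for all genes. Phf6, a chromatin-associated zinc finger gene that ends 31.2 kb before Hprt starts, was at 31.2 to 58.1 CPM in E14 against 59.8 to 68.9 in FS, with no overlap. Its log2 difference was -0.56 ± 0.10 (edgeR adjusted p = 0.00194), so it stayed well read where Hprt was not. The glypican genes Gpc4 (0.72 ± 0.16, adjusted p = 0.00569) and Gpc3 (1.02 ± 0.27, adjusted p = 0.0236) were higher in E14; the Gpc3 call held in 17 of 21 alternatives. On the other side Plac1, the nearest, reached at most 1.30 CPM in any cultured sample and could not be tested. Beyond it Fam122b, at 5.26 to 15.9 CPM in E14, a range that held all FS samples, did not pass (-0.36 ± 0.21, adjusted p = 0.252). Mospd1, at 2.84 to 4.67 and 4.33 to 9.33 CPM, did not pass either (-0.61 ± 0.24, adjusted p = 0.0932). Nor did Ccdc160, at 1.49 to 7.53 CPM in E14 and 3.91 to 8.32 in FS. Zfp36l3, at 0 to 4.33 CPM in E14 and 0.408 to 4.01 in FS, did not pass, and Fam122c had no counts in any sample.

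The genes whose levels tracked Hprt most closely over the 21 samples were mostly processed pseudogenes. Because Hprt was near zero in every E14 sample, such a ranking returns genes that were low in the same samples. It describes that gap, and joint regulation was not tested. By Pearson correlation of log2 CPM among 16614 genes, Vcp-rs (r = 0.984), Gm11361 (0.980), Gm10260 (0.980), Gm13736 (0.977) and Gm12411 (0.973) came first. Of these 5, 4 are annotated as processed pseudogenes. Gm10260 had 1.02 ± 0.33 CPM in E14 (SD, n = 6), 108 ± 17.9 in FS (n = 6) and 168 ± 10.8 in epiblasts (n = 9). Copies of this kind share reads with their parent genes, so their counts are uncertain, and the points share their libraries.

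Aprt, the other purine base salvage gene, did not pass in E14 against FS. It was at 55.3, 44.1 and 47.1 CPM in AF passages 14, 15 and 16 and at 43.0, 49.8 and 44.0 in AFX. FS samples ran from 27.2 through a median of 37.4 to 51.7 CPM. The groups overlapped because FS line 1 passage 11 was as high as the E14 samples. The log2 difference was 0.32 ± 0.13 (edgeR adjusted p = 0.112, 95% interval 0.04 to 0.60). It passed in 3 of 21 alternative settings.

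Against the epiblasts Aprt was lower in FS (-0.50 ± 0.13, adjusted p = 0.00175), while the E14 value of -0.18 ± 0.12 did not pass (adjusted p = 0.213). The FS difference did not pass for line 1 alone (-0.31, adjusted p = 0.0885) or against E6.0 alone (-0.35, adjusted p = 0.0908). Epiblasts ran from 41.8 through 53.5 to 69.1 CPM, and the E14 range lay within theirs.

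For the 9 genes other than Hprt, E14 minus FS was the direct comparison, taken as the mean of AF and AFX minus FS. Impdh1 alone was called higher and none was called lower, 8 genes not passing, where a call is an edgeR quasi-likelihood adjusted p under 0.05. Over all 16052 genes tested 17.2% were called, 8.68% higher and 8.51% lower. At an unadjusted p under 0.05, 3 of the 9 were higher (Aprt, Adsl and Impdh1) and 2 lower (Pfas and Paics), and the DESeq2 Wald test called 2 higher and 0 lower. The median log2 difference of the 9 was -0.13, beside -0.01 for all genes; without AF passage 15 it was -0.02 for both. In all 9 the E14 and FS samples overlapped.

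**Figure D2:**
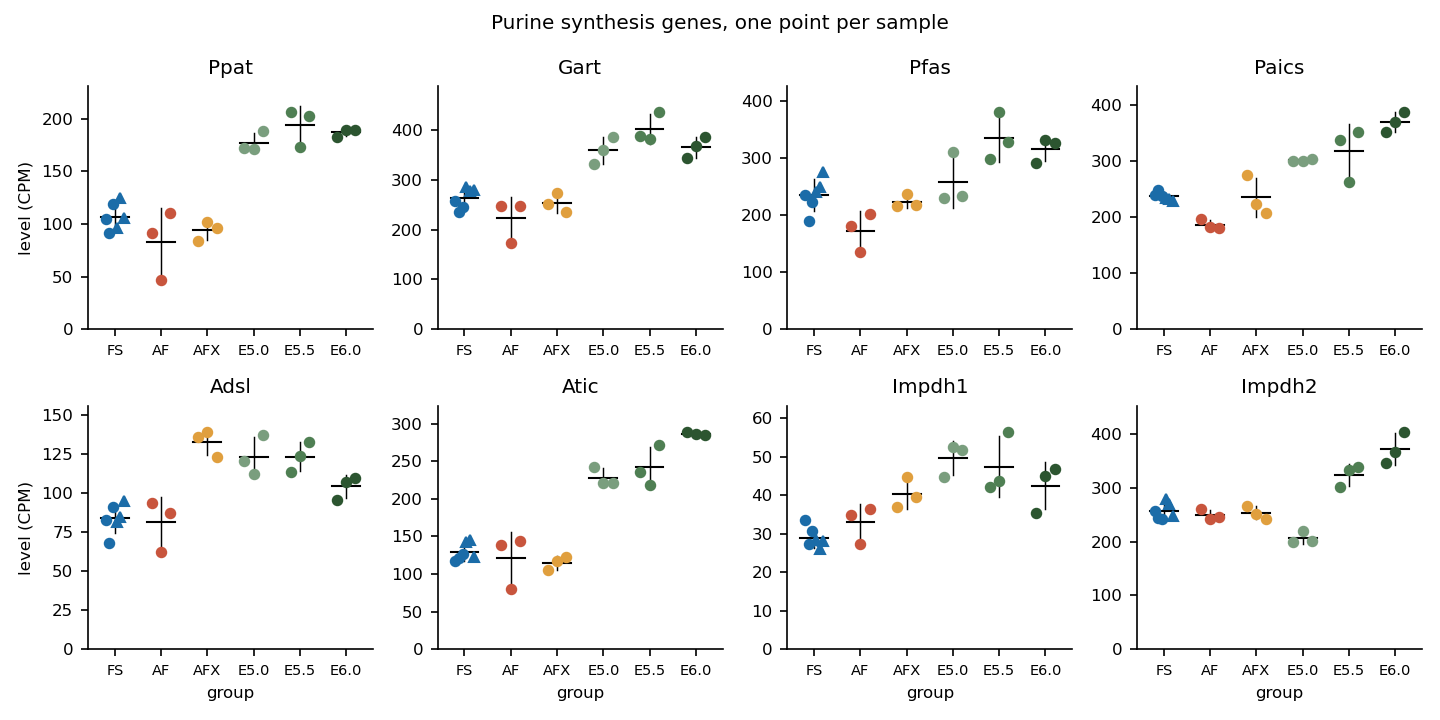
Levels of the 8 synthesis genes in CPM, 1 panel per gene and 1 point per sample, with group means and SD; circles are FS line 1 and triangles FS line 2. FS, AF and AFX overlap for Ppat, Gart, Atic and Impdh2, AFX stands above FS for Adsl and Impdh1, and the epiblasts stand above all cultured samples for Ppat, Gart and Atic.

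Ppat, the gene of the committed step, was at 91.4, 46.5 and 110.0 CPM in AF passages 14, 15 and 16 and at 83.7, 102 and 96.6 in AFX. The 6 FS samples ran from 90.9 through 105 to 125 CPM. AF passage 15 was far below the other E14 samples, which overlapped FS. The log2 difference E14 minus FS was -0.27 ± 0.16 (adjusted p = 0.287). Its 95% interval was -0.62 to 0.08, and without AF passage 15 the value was -0.13 (adjusted p = 0.388).

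Gart, whose product carries out 3 steps of the chain, lay at 173 to 273 CPM in E14 and 235 to 285 in FS. Its log2 difference of -0.14 ± 0.10 did not pass (adjusted p = 0.351). Atic, the gene of the last 2 steps, lay at 80.1 to 144 CPM in E14 and 118 to 145 in FS (-0.13 ± 0.12, adjusted p = 0.538). For both genes the lowest value was that of AF passage 15, without which the differences were -0.07 and -0.02.

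Pfas and Paics, the genes of middle steps, were a little lower in E14 without passing. Pfas was at 182, 135 and 202 CPM in AF and 217, 237 and 218 in AFX, against 190 to 276 in FS. Paics was at 197, 182 and 182 CPM in AF and 275, 224 and 209 in AFX, against 230.0 to 249.5 in FS. For both genes all 3 AF samples lay below all 3 AFX samples. The combined log2 differences were -0.25 ± 0.11 for Pfas (adjusted p = 0.118) and -0.17 ± 0.08 for Paics (adjusted p = 0.153).

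Adsl, whose enzyme acts once in the chain to IMP and again on the way to AMP, differed between the cultures in the 2 E14 media. It was at 93.6, 62.3 and 87.3 CPM in AF passages 14, 15 and 16 and at 136, 139 and 123 in AFX. FS samples ran from 68.0 through 83.8 to 94.5 CPM. All AFX samples stood above all FS and AF samples, and AF overlapped FS. The mean of both media gave 0.32 ± 0.11 (adjusted p = 0.0516), which passed in 6 of 21 alternatives.

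Impdh1, a lower-read IMP dehydrogenase gene, was at 35.0, 27.3 and 36.5 CPM in AF and at 36.8, 44.8 and 39.6 in AFX. FS samples ran from 26.1 through 28.2 to 33.5 CPM. All AFX samples lay above FS, and AF passage 15 lay within FS. The log2 difference E14 minus FS was 0.34 ± 0.10 (adjusted p = 0.0380), or 1.26-fold (95% interval 1.08 to 1.47). The call held in 11 of 21 alternatives, with adjusted p from 0.0102 to 0.275. It was lost without any one of FS passages 11, 12, 13 or 16, AF passages 14 or 16, or AFX passages 15 or 16.

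Impdh2, the other isozyme and the more highly read of the pair, was at 242 to 267 CPM in E14 and 242 to 279 in FS. Its log2 difference was -0.02 ± 0.07 (adjusted p = 0.869, 95% interval -0.17 to 0.12). Of the 9 genes this was the smallest difference. For the 6 de novo genes, the highest upper limit of any 95% interval was that of Adsl, 1.46-fold.

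Each medium was also set against the same 6 FS samples, which the comparisons share. In AF minus FS, Pfas (-0.43 ± 0.13, adjusted p = 0.0297) and Paics (-0.34 ± 0.10, adjusted p = 0.0234) were lower and none of the 9 was higher, where 19.5% of all genes were called and 8.86% were lower. Neither passed without AF passage 15 (Pfas adjusted p = 0.113, Paics 0.0553), the sample that was lowest of the 12 cultured samples in 6 of these 9 genes. Pfas also did not pass without FS passage 13 or 16 or AF passage 14, and Paics without AF passage 16. Against FS line 1 alone neither passed (Pfas adjusted p = 0.178, Paics 0.0586). In AFX minus FS, Adsl (0.67 ± 0.13, adjusted p = 0.00348) and Impdh1 (0.48 ± 0.13, adjusted p = 0.0257) were higher and none was lower, where 8.7% of genes were called, 4.92% higher and 3.78% lower. The Impdh1 call was lost without AFX passage 15 (adjusted p = 0.157) or 16 (0.0702) or against FS line 1 alone (0.166). AF samples were the ones with high fibroblast marker sums, and the part of these in the AF values was not tested. Of the 6 fibroblast markers tested in AFX minus AF, 5 were lower and 1 was higher, beside 4.42% and 4.3% of all genes.

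Set against each other, the 2 E14 media differed in 1 of the 9 genes other than Hprt, where 8.73% of all genes were called, 4.3% higher and 4.42% lower. Adsl was higher in AFX by 0.71 ± 0.15 on the log2 scale, or 1.63-fold (adjusted p = 0.00951), and passed in 14 of 14 alternatives (adjusted p from 0.000408 to 0.0497). Paics (0.33 ± 0.11, adjusted p = 0.0776) and Pfas (0.37 ± 0.15, adjusted p = 0.153) did not pass. Both media were nearly without Hprt reads. The AF and AFX samples also differed in the Y-linked gene Kdm5d, at 13.6 to 23.4 CPM in AF and at most 0.250 in AFX, while Y-linked Ddx3y was at 56.1 to 81.0 CPM in all 6. Whether anything besides the medium differed between these cultures was not tested.

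The FS lines gave the size of a difference between lines that both had Hprt reads. They also differed in sex-linked genes: Xist was at 272 to 721 CPM in line 1 and at most 0.951 in line 2, and Ddx3y at most 0.355 CPM in line 1 and 76.4 to 96.0 in line 2. The E14 samples resembled line 2 in both genes, with Xist at most 0.704 CPM, and the part of this in the X-linked Hprt, Phf6, Prps1 and Prps2 values was not tested. None of the 10 genes passed in line 2 minus line 1, where 3.85% of genes were called, 2.65% higher and 1.2% lower, and the DESeq2 Wald test also called 0. The largest value was that of Aprt, -0.40 ± 0.16 (adjusted p = 0.186; unadjusted p = 0.0207), and it was the only one of the 10 with an unadjusted edgeR p under 0.05.

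Against the epiblasts the picture changed, in E14 and in FS. In E14 minus the mean of the 3 stages, 7 of 9 genes were lower, none was higher, and Aprt and Adsl did not pass. Of all 16614 genes tested, 56.4% were called in either direction and 25.4% were lower. The median of the 9 was -0.62, beside 0.08 for all genes. In FS minus epiblast 9 of 10 genes were lower, all but Hprt, with a median of -0.49 beside 0.09, where 57% of genes were called and 24.9% were lower. Both comparisons share the epiblasts.

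**Figure D3:**
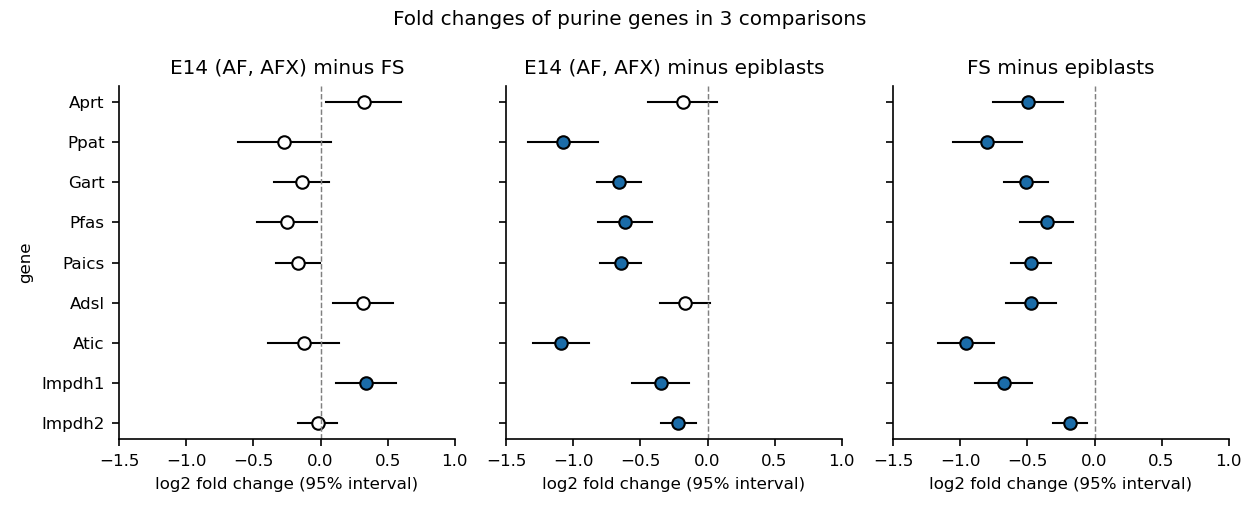
Log2 differences with 95% intervals for the 9 genes other than Hprt in E14 minus FS, E14 minus epiblast and FS minus epiblast; filled points had an adjusted p under 0.05. In E14 minus FS the points lie between -0.27 and 0.34 and 1 is filled, and against the epiblasts all points lie below 0 for E14 and for FS.

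Atic had the largest fall. It was at 243, 221 and 221 CPM in the E5.0 embryos, 235, 219 and 271 at E5.5, and 289, 286 and 285 at E6.0. No cultured sample exceeded 145 CPM, so embryos and cultures did not overlap. The log2 difference was -1.09 ± 0.10 in E14 (adjusted p = 8.46e-09) and -0.96 ± 0.10 in FS (adjusted p = 5.57e-08).

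Ppat was at 171 to 206 CPM in the 9 embryos and at most 125 in culture. It was lower by -1.08 ± 0.13 in E14 (adjusted p = 2.82e-07) and by -0.80 ± 0.13 in FS (adjusted p = 1.22e-05). Gart was at 332 to 436 CPM in the embryos and at most 285 in culture, giving -0.66 ± 0.08 in E14 and -0.51 ± 0.08 in FS.

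Paics and Pfas showed smaller differences from the embryos. Paics was at 262 to 388 CPM in the embryos, and gave -0.65 ± 0.07 in E14 and -0.47 ± 0.07 in FS. Pfas was at 231 to 381 CPM in the embryos, and gave -0.62 ± 0.10 in E14 (adjusted p = 1.29e-05) and -0.36 ± 0.10 in FS (adjusted p = 0.00316). The FS value did not pass against E5.0 alone (-0.13, adjusted p = 0.404) or for FS line 2 alone (-0.24, adjusted p = 0.0954). In Pfas 1 E14 sample and 4 FS samples lay within the range of the embryos, and in Paics AFX passage 14 did, above E5.5 embryo 2.

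Adsl split the cultures. Embryos lay at 95.4 to 137 CPM, with 2 AFX samples inside that range, 1 just above it and all 3 AF samples below it. Adsl was lower in FS (-0.47 ± 0.09, adjusted p = 0.000119) and did not pass in E14 (-0.17 ± 0.09, adjusted p = 0.116). Impdh1, at 35.5 to 56.5 CPM in the embryos, was lower in E14 (-0.35 ± 0.10, adjusted p = 0.00548) and in FS (-0.68 ± 0.10, adjusted p = 7.39e-06). Against the E6.0 embryos alone Impdh1 did not pass in E14 (-0.22, adjusted p = 0.194).

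Proliferation genes also differed from the epiblasts. Of 12, 11 were lower and 1, Mki67, was higher in E14 minus epiblast (median -0.71). In FS minus epiblast 10 were lower and 1 higher (median -0.62). Of all genes, 25.4% and 24.9% were lower and 30.9% and 32.1% higher in these comparisons, with medians of 0.08 and 0.09. The summed level of the 12 proliferation genes was 3462 to 4243 CPM in cultured samples and 5156 to 5670 in embryos. Of 5 pluripotent epiblast markers 4 were lower in E14 minus epiblast (median -0.60), beside 25.4% of all genes. In FS minus epiblast 4 were lower (median -0.62), beside 24.9% of all genes, and Sox2 was higher. In AF minus FS 2 of these markers were lower, Dnmt3b (786 against 1549 CPM) and Sox2 (33.5 against 62.7 CPM), beside 8.86% of all genes. Library input also differed, 1000 cells against 1 epiblast. The part of any of these in the purine gene values was not tested.

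Impdh2 was the gene of the set that changed most with embryonic stage. It was at 199, 219 and 201 CPM in the E5.0 embryos, 300.5, 333 and 339 at E5.5, and 346, 367 and 404 at E6.0. The 3 stages did not overlap. E6.0 minus E5.0 gave 0.84 ± 0.10 on the log2 scale, or 1.79-fold (edgeR adjusted p = 4.49e-05), and passed in 13 of 13 alternatives.

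Cultured samples, at 242 to 279 CPM, lay between the E5.0 and E5.5 embryos in Impdh2. The sign of culture against embryo therefore turned with the stage. Against all stages the differences were -0.22 ± 0.06 for E14 (adjusted p = 0.00463) and -0.18 ± 0.06 for FS (adjusted p = 0.0131), the latter not passing in 3 of 28 alternatives: FS line 2 alone (-0.13, adjusted p = 0.160), no filter (0.0784) and upper-quartile scaling (0.0513). Against E5.0 alone they were 0.29 for E14 (adjusted p = 0.00665) and 0.32 for FS (adjusted p = 0.00296), and against E6.0 alone -0.57 and -0.54.

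Of the 10 genes, Impdh2 and Atic were higher at E6.0 than at E5.0 and none was lower, where 21.8% of 14228 genes were called and 10.2% were higher. Atic rose by 0.31 ± 0.10 (adjusted p = 0.0353). The call was lost without E5.0 embryo 2 or 4 or without any one of the E6.0 embryos. Visceral endoderm markers moved the other way, with 5 of 5 tested genes lower at E6.0, beside 11.6% of all genes, and their part was not tested. Without the E5.0 embryos, a setting chosen after seeing the data, 7 of 9 genes were called against the epiblasts for E14 and 9 of 10 for FS, where 50.8% of all genes were called in each.

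Levels of different genes were compared per kilobase of exon, with every annotated exon base of a gene counted once over all its transcripts. These lengths ran from 1289 bases for Hprt to 7985 for Atic. They can exceed the length of the transcripts present, so the order of genes depends on them. In FS the highest were Impdh2 (83.4 ± 4.9 CPM per kb) and Paics (75.7 ± 2.2), followed by Hprt (52.5 ± 7.0) and Gart (51.2 ± 4.0), which overlapped within their spread. Pfas (29.7 ± 3.6), Ppat (24.2 ± 2.9) and Aprt (23.5 ± 4.9) came next, each overlapping its neighbour within their spread. Atic (16.2 ± 1.5) and Adsl (14.9 ± 1.6) also lay within their spread, and Impdh1 (8.81 ± 0.81) was lowest. In E14 Hprt was at 0.352 ± 0.246 CPM per kb, below all the other 9. Over all epiblasts Paics (105 ± 12.8), Impdh2 (97.8 ± 24.8) and Gart (73.0 ± 5.9) were highest, with Impdh2 overlapping both. At E5.0 Gart (69.8 ± 5.3), Impdh2 (67.0 ± 3.5) and Hprt (66.2 ± 26.2) lay within their spread, below Paics (96.4 ± 0.7). At the later stages Impdh2 and Paics lay within their spread, at 105 ± 6.7 and 101 ± 15.5 at E5.5 and at 121 ± 9.6 and 118 ± 5.5 at E6.0.

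Correlations of log2 CPM describe how far the de novo genes moved together. Over the 21 samples, r was 0.953 for Ppat with Gart and 0.945 for Ppat with Atic. Over the 12 cultured samples it was 0.839 and 0.851. Adsl was less close to the other 5, with r from 0.464 (Atic) to 0.629 (Gart) over all samples. Paics and Atic had r = 0.856 over all samples and 0.076 over the cultured ones. The points share libraries, scaling and the difference between cultures and embryos.

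PRPP synthetases make the sugar donor that both purine routes use. In E14 minus FS, 2 of the 4 genes of this list were lower and none was higher, with a median of -0.35, beside 8.51% of all genes lower and a median of -0.01. Prps1 was at 36.7 to 60.2 CPM in E14 and 57.8 to 86.4 in FS (-0.46 ± 0.11, adjusted p = 0.00950). Prpsap2, the gene of a regulatory partner of the synthetase, was at 21.9 to 25.6 CPM in E14 and 24.5 to 41.0 in FS (-0.47 ± 0.12, adjusted p = 0.0165). FS line 1 was closer to E14 in both genes (Prps1 61.0 ± 2.9 CPM in line 1 and 77.9 ± 7.4 in line 2; Prpsap2 27.3 ± 3.2 and 37.2 ± 3.4; SD, n = 3). Against FS line 1 alone neither passed (Prps1 -0.29, adjusted p = 0.172; Prpsap2 -0.23, adjusted p = 0.284). Against epiblasts Prps1 was lower in E14 (-0.81 ± 0.17, adjusted p = 0.000535) and the FS value of -0.34 ± 0.17 did not pass (adjusted p = 0.0976).

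Prps2, the second synthetase gene, separated the FS lines. It was at 2.39, 0.828 and 0.326 CPM in line 1 at passages 10, 11 and 18, and at 84.6, 94.1 and 82.5 in line 2 at passages 12, 13 and 16. Prps2 was at 39.5 to 43.4 CPM in AF and 76.1 to 86.4 in AFX. Line 2 minus line 1 gave 6.21 ± 0.33 on the log2 scale (adjusted p = 4.30e-08), and Prps2 passed in 11 of 11 alternatives. The line comparison was singled out for Prps2 after its values were seen. In E14 minus FS, where both lines were in the FS group, Prps2 had an SE of 1.04 and did not pass.

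**Figure D4:**
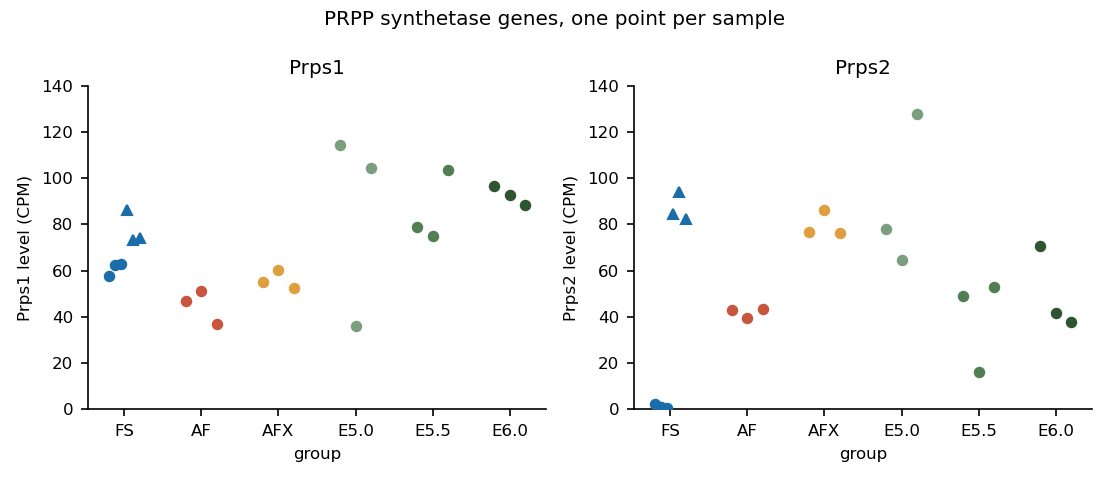
Levels of the PRPP synthetase genes Prps1 and Prps2 in CPM, 1 point per sample, by group (circles FS line 1, triangles FS line 2). FS line 1 lies at 0.326 to 2.39 CPM for Prps2 and every line 2 sample at 82.5 CPM or more, while Prps1 lies at 57.8 to 86.4 CPM in both lines together.

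The other lists of the pathway were read against the 17.2% of all genes called in E14 minus FS. None of 5 genes of the AMP and GMP branch passed (1 at an unadjusted edgeR p under 0.05; median -0.14), and none of 7 tested purine transporter genes (4 at an unadjusted p under 0.05; median -0.12). Of 12 serine and one-carbon genes (median -0.16), which supply glycine and formyl groups to the purine ring, Mthfd2l was higher (1.38 ± 0.17, adjusted p = 8.95e-05) and Aldh1l2 lower (-0.97 ± 0.30, adjusted p = 0.0423). The Aldh1l2 call held in 11 of 21 alternatives (adjusted p from 0.00991 to 0.101). Mthfd2l, a mitochondrial folate enzyme gene, was at 15.7 to 23.7 CPM in E14 and 5.18 to 9.05 in FS. Of 9 tested nucleoside salvage and breakdown genes 1 was higher: Nt5e, the gene of the cell surface nucleotidase CD73, at 3.52 to 17.2 CPM in AF, 0.470 to 2.0 in AFX and at most 0.696 in FS.

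Pyrimidine genes served as a neighbouring pathway. Of 9, Ctps2, a CTP synthase gene, was lower in E14 (-0.33 ± 0.11, adjusted p = 0.0437) and the others did not pass. The Ctps2 call held in 9 of 21 alternatives (adjusted p from 0.0234 to 0.248). Among 5 genes of the MYC and ATF4 regulators, factors known to act on purine synthesis genes, Myc was higher in E14 (1.34 ± 0.31, adjusted p = 0.0104), at 19.2 to 49.6 CPM against 6.61 to 23.1 in FS. Against FS line 1 alone Myc did not pass (1.04, adjusted p = 0.0670). Of 12 proliferation genes only Top2a was called, lower by -0.40 ± 0.09 (adjusted p = 0.00574).

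Against the epiblasts the supply lists differed in direction. In E14 minus epiblast 8 of 12 serine and one-carbon genes were higher (median 0.53), beside 30.9% of all genes higher and a median of 0.08 over all genes. Aldh1l2 (3.06 ± 0.52), Mthfd2l (2.75 ± 0.27), Aldh1l1 (2.44 ± 0.25) and Psat1 (0.88 ± 0.19) had the largest rises, and Shmt1 (-1.05 ± 0.11) was lower. These are differences from the mean of stages that were far apart. Mthfd2l was at 0 to 1.49 CPM at E5.0, 2.24 to 3.96 at E5.5 and 7.89 to 10.3 at E6.0, and the FS samples overlapped the last. Aldh1l2 was at 0 in 2 E5.0 embryos and at most 3.73 CPM in any embryo. Psat1 had a mean of 48.6 CPM at E5.0 and 149.6 at E6.0 (194 in E14), whereas Aldh1l1 had 6.75 at E5.0 and 0.578 at E6.0 (10.7 in E14). In FS minus epiblast the list also had 8 higher, beside 32.1% of all genes. PRPP genes were lower in 3 of 4 for E14 (median -0.65), beside 25.4% of all genes, and in 1 of 4 for FS, beside 24.9%. Pyrimidine genes, beside the same shares, were lower in 5 of 9 for E14 (median -0.33) and in 6 of 9 for FS (median -0.34), and none was higher.

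In the branch from IMP to AMP and GMP, E14 minus epiblast had 3 higher and 2 lower of 5. Of all genes, 56.4% were called in that comparison, 30.9% higher and 25.4% lower. Adss, the adenylosuccinate synthase gene upstream of ADSL on the AMP side, was lower (-0.78 ± 0.09, adjusted p = 2.05e-07), and so was Gmps, which makes GMP after IMPDH (-0.28 ± 0.09, adjusted p = 0.0127). Adssl1, the muscle form of the synthase (2.36 ± 0.61), Gmpr (1.16 ± 0.41) and Gmpr2 (0.58 ± 0.13), the GMP reductase genes, were higher. Of the 5 regulators, Myc (-0.87 ± 0.25), Mycn (-0.99 ± 0.15), Mycl (-0.94 ± 0.14) and Max (-0.39 ± 0.11) were lower and Atf4 (0.61 ± 0.11) was higher. For FS the calls of these 5 had the same directions, with Myc at -2.21 ± 0.27 and Mycn at -1.43 ± 0.15. There 57% of all genes were called, 32.1% higher and 24.9% lower. Atf4 itself rose with stage, from 90.3 to 133 CPM at E5.0 to 245 to 292 at E6.0 (1.19 ± 0.19, adjusted p = 0.000931). Its levels of 199.8 to 340 CPM in E14 and 236 to 280 in FS overlapped the E6.0 embryos, so its difference from the mean of the stages does not hold for each stage.

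**Figure D5:**
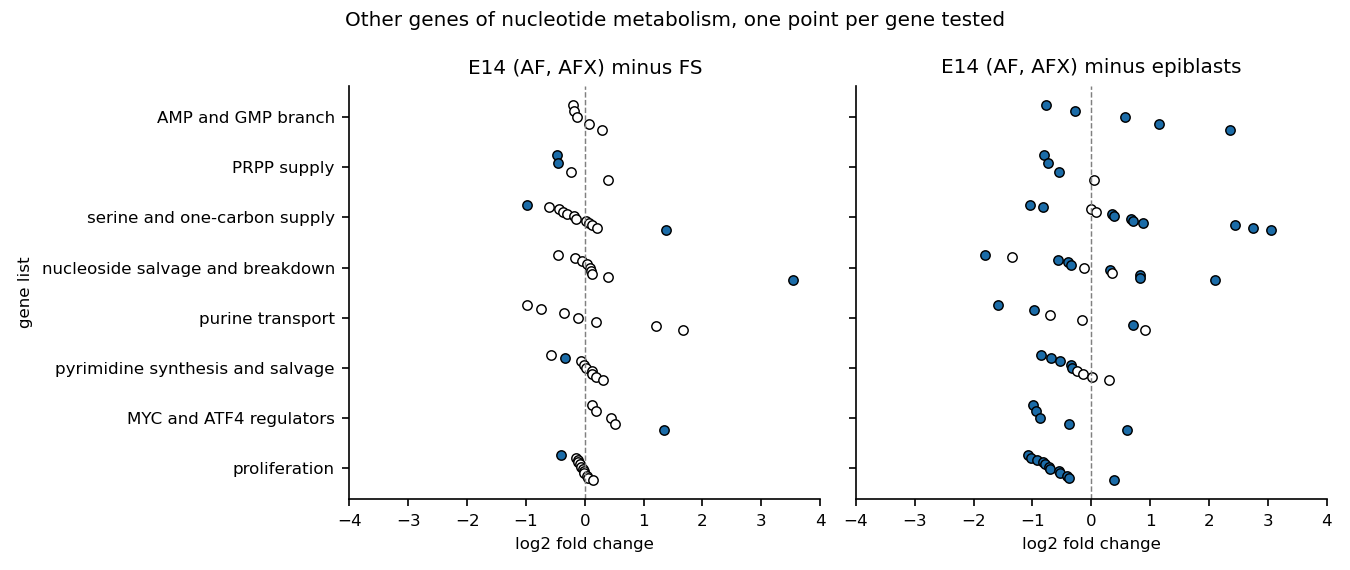
Log2 differences of the genes of each pathway list in E14 minus FS and in E14 minus epiblast, 1 point per tested gene, filled where the adjusted p was under 0.05. In E14 minus FS few points are filled, and in E14 minus epiblast the serine and one-carbon genes lie mostly above 0 and the MYC genes below 0.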

How the data were processed

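Gene counts for 21 mouse samples were deposited by the authors as 1 table of raw counts, not normalized; per the submitters' processing notes, reads were trimmed with Trim Galore, mapped to mm10 with TopHat2 2.1.0 and counted with featureCounts 1.5.0. The gene annotation and strand setting of the counting are not given in the sources used here. Groups came from the sample labels. The 10 genes and all gene lists were chosen with earlier results of these data known, and the lists were written from textbook knowledge. All 10 genes were named. Of the other lists, up to 4 genes per list and direction with the largest change among those that passed could be named. Genes near Hprt could be named whatever their result. The values of 1 gene of the serine and one-carbon list are not reported here. Genes like Hprt were the 5 with the highest correlation.

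Differences were fitted with edgeR 4.0.16 (R 4.3.3): TMM scaling, filterByExpr, robust quasi-likelihood F-test, two-sided, Benjamini-Hochberg over all genes tested. Fits used the 12 cultured samples (16052 genes), the 9 epiblasts (14228) or all 21 (16614). Correlations used log2 CPM with a prior count of 2. DESeq2 1.42.0, other scalings and filters, single FS lines or stages, and each sample left out were alternatives. On simulated counts with 200 changed genes, E14 minus FS recovered 26.7% of 1.5-fold changes (56.2% at a mean of at least 25 CPM) and 63.4% of 2-fold changes. Replicates differed by more than counting noise (chi-square per degree of freedom 5.19 to 32.2 in 21 pairs). Depth was 5827093 to 15916800 counts per sample. Of 33861 identifiers, 33683 were in GENCODE M21. Promoter windows are from RefSeq, GRCm38.p6, with 9 of the 10 genes matched, all but Pfas.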

Additional observations from a re-analysis of the deposited data

Results flagged for a closer look

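Impdh2 differed between the E5.0 and E6.0 epiblasts by 0.84 on the log2 scale (edgeR adjusted p = 4.49e-05), while the cultured samples lay between the stages, so that E14 and FS were above the E5.0 embryos and below the E6.0 embryos. The test of the difference is that between the stages. Visceral endoderm markers summed to 218 to 772 CPM at E5.0 and 2.95 to 7.25 at E6.0, and their part was not tested.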

How the results depend on the processing

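Counts of the set that passed moved as follows, with the share of all genes called in brackets. The main fit of E14 minus FS gave 1 (17.2%). The count was 2 with DESeq2 size factors (17.2%), 2 by the DESeq2 Wald test (21%) and 0 with no filter (8.75%). It was 2 with a mean of at least 5 CPM (17.9%), 0 against FS line 1 alone (10.7%) and 2 against line 2 alone (19.5%). With the lines as separate groups it was 3 (21.5%), and 0 to 2 leaving out 1 sample (13% to 19%). For AF minus FS, 2 in the main fit (19.5%), it was 1 with no filter (10.2%) and 1 with only the compared groups (18.2%). It was 0 against FS line 1 alone (13.9%), 3 with the lines as separate groups (23.6%) and 0 to 3 leaving out 1 sample (13.6% to 21.1%). For AFX minus FS, 2 in the main fit (8.7%), it was 1 against FS line 1 alone (6.87%) and 3 against line 2 alone (12.2%). Leaving out 1 sample gave 1 to 2 (4.97% to 9.27%). For AFX minus AF, 1 in the main fit (8.73%), the DESeq2 Wald test gave 2 (12.2%). For E6.0 minus E5.0, 2 in the main fit (21.8%), no filter gave 4 (13.5%) and the replicate block (embryo number) gave 1 (15.8%). Leaving out 1 sample gave 1 to 3 (12.7% to 22.6%). For E14 and FS minus epiblast the counts stayed within 6 to 7 and 7 to 9. The replicate block left AFX minus AF at 1 (6.07%). Same-numbered AF and AFX samples correlated at -0.125, -0.093 and 0.196, and differently numbered ones at -0.26 to 0.304. No pairing by number was seen, and so few samples cannot exclude it. Same-numbered E5.0 and E6.0 embryos correlated at 0.00788 and -0.0477 and share only a number; with the block Atic was at 0.25 (edgeR adjusted p = 0.158).

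Of 1616 gene values under alternatives, 39 changed sign; 37 of them passed in neither fit. Of the differences given as log2 values, against FS line 1 alone Impdh2 became 0.019 in E14 minus FS, 0.013 in AF minus FS and 0.025 in AFX minus FS, Adsl 0.012 in AF minus FS, and Gart 0.037 and Pfas 0.046 in AFX minus FS. Paics in AFX minus FS became 0.045 against FS line 2 alone and 0.0044 with a mean of at least 5 CPM. Gart in E6.0 minus E5.0 became -0.018 with that filter and -0.0016 with only the compared groups. Hprt in FS minus epiblast became 0.0013 against E5.5, 0.061 against E6.0 and 0.031 against both, the last chosen after seeing the data. Impdh2 against E5.0 alone passed in the other direction, at 0.29 for E14 and 0.32 for FS. Leaving out 1 sample, the ranges were -0.043 to 0.0043 for Impdh2 in E14 minus FS, and in AF minus FS -0.15 to 0.12 for Adsl and -0.23 to 0.13 for Atic. In AFX minus FS they were -0.11 to 0.0060 for Gart, -0.13 to 0.082 for Paics and -0.056 to 0.023 for Impdh2. In AFX minus AF they were -0.11 to 0.44 for Ppat, -0.30 to 0.063 for Atic and -0.027 to 0.051 for Impdh2. Hprt in FS minus epiblast ran from -0.23 to 0.024, Gart in E6.0 minus E5.0 from -0.027 to 0.079, and Ppat between the FS lines from -0.079 to 0.13. For these the cause was not tested.

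On simulated counts AFX minus AF recovered 6.76% of 1.5-fold changes and E6.0 minus E5.0 recovered 6.45%. Among genes at a mean of at least 25 CPM the shares were 10.8% and 16.7%. Most changes of that size were thus missed in the simulation with 3 samples a group. It changed 200 genes, whereas 8.73% and 21.8% of all genes were called in the data, so recovery in the data may differ.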

Other observations

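Counts of Y-linked genes split the epiblasts, and Hprt can be set beside them. In E5.0 embryos 1 and 4, E5.5 embryo 3 and E6.0 embryos 2 and 3, the Y-linked genes Ddx3y, Eif2s3y, Kdm5d and Uty had at most 7 counts together and Xist was at 649 to 969 CPM. In the other 4 embryos the Y-linked genes had 754 to 1602 counts and Xist was at 0.657 to 58.4 CPM, highest in E5.0 embryo 2. Hprt in the embryos low in Y-linked counts was at 112 and 96.4 CPM at E5.0, 95.2 at E5.5, and 69.2 and 66.4 at E6.0. In the others it was at 47.4 CPM at E5.0, 51.7 and 55.7 at E5.5, and 58.9 at E6.0. Phf6, near Hprt, was at 83.3 and 78.8 CPM in the first set at E5.0 against 51.1 in the other embryo, and at 63.6 against 52.6 and 58.6 at E5.5. At E6.0 it was at 74.2 and 58.4 CPM against 72.7. Prps1, also X-linked, was at 114 and 105 CPM against 36.0 at E5.0 and at 104 against 78.8 and 74.8 at E5.5, but at 92.6 and 88.2 against 96.6 at E6.0. X-linked Prps2 was at 78.1 and 128 CPM against 64.5 at E5.0 and at 52.8 against 49.2 and 16.2 at E5.5. At E6.0 Prps2 was at 41.8 and 37.8 CPM against 70.6. These sets were read from the data and were not compared by a test.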
